A study of Mus musculus with 4 samples.

Results

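Integrins are heterodimers of 1 alpha and 1 beta subunit that span the plasma membrane and tie the extracellular matrix to the actin cytoskeleton. The pairing of subunits sets the ligand, and the short cytoplasmic tail of the beta subunit recruits talin, kindlins and the other adaptors of focal adhesions. In fibroblasts these receptors carry adhesion, spreading, migration and the assembly of fibronectin matrix. The 7 genes described here encode 5 alpha subunits (Itga3, Itga5, Itga6, Itga7 and Itgav) and 2 beta subunits (Itgb1 and Itgb5). They were taken as every probe set whose platform annotation gave exactly 1 gene symbol, that symbol being one of the 7. This gave 14 probe sets among 10833 with 1 symbol, and 7 genes among 8251 named.

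The study looked for target genes of menin, the product of Men1. All 4 arrays held total RNA of cultured mouse embryonic fibroblasts of a mixed FVB;129Sv background that were Men1 knockout. In 2 samples the cells had been complemented with Men1 (titles "Men1 MEFs") and in 2 with vector ("Men1-/- MEFs"), and each group holds a sample numbered 1 and one numbered 2. The labels name neither the vector nor its promoter, nor whether a group came from 1 line, and nothing in them says that numbered samples came from separate cultures. P-values therefore measure the spread between these samples, which may be technical. The adherent cells were detached with trypsin before RNA was taken.

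Values are MAS5 signals, a brightness per probe set on a linear scale, and differences are Men1-complemented minus vector on the log2(signal + 16) scale, which understates the fold of dim probe sets. Per the labels, poly(T) and random primers were both used for reverse transcription, and the final cDNA was labelled at its ends. How this bears on the signal of each probe set, on differences between probe sets of a gene and on 3′ to 5′ ratios was not tested. Pairs of signals are given as array 1 and array 2, those with Men1 first and those with vector after "against". A probe set is called above control on an array when its signal exceeded the highest of the 19 control probe sets without spiked RNA (25.9 and 27.4 for Men1-complemented samples 1 and 2, 15.9 and 20 for vector). Of 12422 probe sets tested, 58.1% were above control on all 4 arrays. The Men1 probe set read 18.8 and 22.5 in Men1-complemented cells, against 18.1 and 29.5 (limma adjusted p = 1), and as its place relative to the deleted sequence is unknown here, it cannot check a label. Of 17 measured fibroblast markers, 11 were above control on every array. The signals of all 17 summed to 11489 to 12932 with Men1, against 12232 to 13116 with vector. Col1a1 was the largest part of each sum (7618.7 and 6175.7 against 6057.4 and 7091.9), so the sums mostly follow this gene. Vim, counted as above control, was close to it (24.2 to 37.5). Thy1 and Fap were at control level on all 4. Markers of other cell types were mixed. Of 14 epithelial markers, 8 were at control level on all arrays (among them Epcam, Krt5, Krt8 and Krt14) and 3 above control on all (Krt19, Cdh1 and Dsp). Of 11 endothelial markers, 6 were at control level on all arrays (among them Cdh5, Tek and Tie1) and 3 above it on all (Pecam1, Eng and Flt1). Of 14 skeletal muscle markers, 7 were at control level on all arrays (among them Myf5, Myf6 and Myh3) and 3 above it on all (Myod1, Tnni1 and Mylpf). Of 17 blood cell markers, 9 were at control level on all arrays (among them Ptprc) and 5 above it on all (Cd14, Laptm5, Cd68, Spi1 and Csf1r). In bulk RNA, fewer cells of a type and less RNA per cell cannot be told apart. The vector arrays differed from each other by a median of 0.306 on the log2 scale, the Men1-complemented arrays by 0.196, and arrays across groups by 0.189 to 0.257.

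Each of the 7 integrin mRNAs was above control in at least 1 probe set on all 4 arrays, and none was shown to differ between the groups. Of the 14 probe sets, 13 were above control on all 4 arrays. With Men1, 6 were higher and 8 lower, with a median log2 difference of -0.05, against -0.01 over all probe sets tested. With each gene taken by its brightest probe set, 5 of the 7 genes were higher and 2 lower. The median was then 0.18, against -0.01 over all genes, so the sign of the median depended on the choice of probe sets. The limma test called 0 of 14 at an adjusted p under 0.05, the same share as in the whole table (0%), with adjusted p = 1 for each. Nor did any (0 of 14) pass at an unadjusted p under 0.05, against 1.88% of all probe sets. The groups did not overlap for 1 of 14, against 22.1% of all probe sets. The largest difference by size was that of Itga5, and its arrays were also by far the most widely spread of the 14. With 2 arrays a group, an exact two-sided permutation test of a single value cannot give a p below 0.333.

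**Figure D1:**
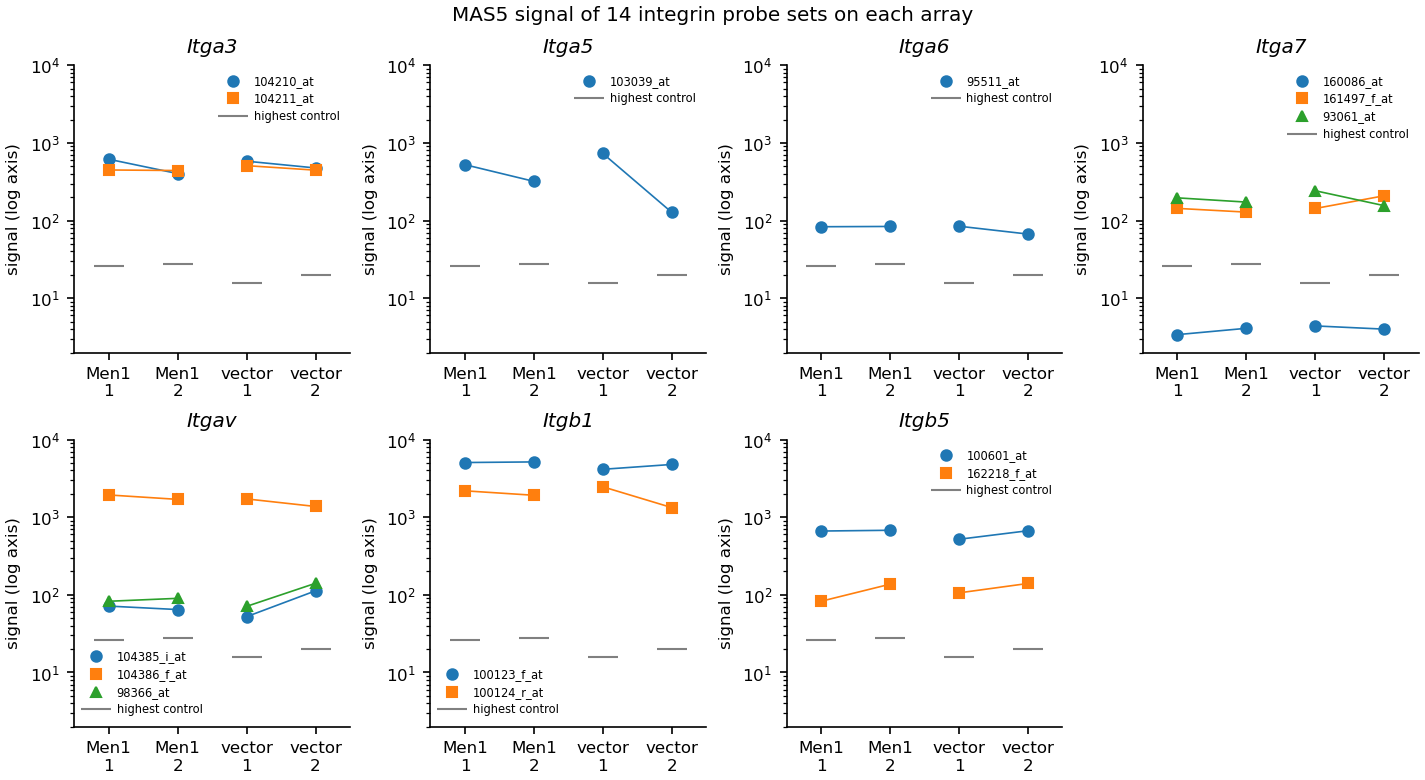
Signal of each integrin probe set (log axis) on the 2 Men1-complemented and 2 vector arrays, 1 panel a gene; symbols are probe sets, lines join arrays of a group, and grey bars mark the highest unspiked control. Itga5 ranges from 127.5 to 731.2, both on vector arrays, and 1 Itga7 probe set lies below the controls on every array.

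Itga5, the alpha subunit of the classical fibronectin receptor, was measured by 1 probe set, 103039_at. Signals were 524.4 (array 1) and 319.8 (array 2) with Men1, and 731.2 (array 1) and 127.5 (array 2) with vector. Both extremes were vector arrays, with the Men1-complemented arrays between them, so that the groups overlapped completely. The highest and lowest signals were 5.73-fold apart. The group means were 422 ± 145 with Men1, against 429 ± 427 with vector (SD, n = 2 each). The log2 difference was 0.38 with a standard error (SE) of 0.81, a 95% interval from -1.72 to 2.48 and a limma adjusted p of 1. Between the arrays numbered 1 the difference was -0.47, and between those numbered 2 it was 1.23. The direction of the group difference thus turned with the vector array that was used. Without vector array 1 the difference was 1.57 (SE 0.37, adjusted p = 0.576 in limma), and without vector array 2 it was -0.81 (SE 0.37, limma adjusted p = 0.88).

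Itgb1 encodes the beta subunit that pairs with Itga3, Itga5, Itga6, Itga7 and Itgav, among others. Both of its probe sets are tied to 1 source sequence in the platform annotation, and both carry a suffix of Affymetrix for relaxed probe choice: _f for probes shared by a family of sequences and _r for selection rules that were dropped. The _f probe set 100123_f_at read 5052.3 and 5145.2 with Men1, against 4132.7 and 4772.7. It was the only one of the 14 whose groups did not overlap, both Men1-complemented arrays being above both vector arrays. The log2 difference was 0.20 (SE 0.18, 95% interval from -0.27 to 0.67, limma adjusted p = 1). The _r probe set 100124_r_at read 2183.4 and 1913.9 with Men1, against 2460.0 and 1328.5. Here the vector arrays again enclosed the Men1-complemented ones, in the same order as for Itga5. The difference was 0.18 (SE 0.33), made up of -0.17 between arrays numbered 1 and 0.52 between arrays numbered 2. The probe sets of this gene therefore shared a sign of the mean difference but not a pattern over arrays.

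Because Itga5 and the _r probe set of Itgb1 held the same order of arrays and together encode the fibronectin receptor, the 250 bases before the annotated start of each gene are shown, from the RefSeq promoters of GRCm38.p6. This choice was made after the values were seen, and the brighter _f probe set of Itgb1 did not hold the order. The probe set 93061_at of Itga7 held it, but no promoter of that gene was among the sequences used. Capitals mark matches on either strand to a searched motif. The motifs were the GC box GGGCGG, the TEAD core GGAATG, the AP-1 site TGANTCA, the TATA box TATAAA and the SRF CArG box. The Itga5 sequence is chr15:103366792-103367041, minus strand, and that of Itgb1 is chr8:128685404-128685653, plus strand, each printed 5′ to 3′ along the gene.
Itga5: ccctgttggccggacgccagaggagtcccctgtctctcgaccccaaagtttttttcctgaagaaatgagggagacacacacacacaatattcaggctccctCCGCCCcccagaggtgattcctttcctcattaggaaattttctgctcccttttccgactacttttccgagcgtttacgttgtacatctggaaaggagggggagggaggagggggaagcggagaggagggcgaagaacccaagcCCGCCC
Itgb1: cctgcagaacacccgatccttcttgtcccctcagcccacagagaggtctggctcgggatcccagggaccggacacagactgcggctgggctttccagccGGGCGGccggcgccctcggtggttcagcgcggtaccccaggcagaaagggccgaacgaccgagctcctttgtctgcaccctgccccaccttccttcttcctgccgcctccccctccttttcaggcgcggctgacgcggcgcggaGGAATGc
The Itga5 stretch held 2 GC boxes, both on the opposite strand and beginning 149 and 6 bases before the start. The Itgb1 stretch held 1 GC box, 151 bases before the start, and 1 TEAD core, 7 bases before it. No marked matches overlap one another. Among 32851 promoter stretches of this length, 32.7% held the GC box, 12.6% the TEAD core, 6.75% the AP-1 site, 12.4% the TATA box and 1.47% the CArG box. GC content was 55.6% for Itga5 and 68% for Itgb1. GC boxes also stood in stretches not shown, 3 before Itgb5, and 3 and 1 before different annotated starts of Itga3. The Itgav stretch held no match to a searched motif. Regulation shared by Itga5 and Itgb1 was not tested. These matches describe letters only. The array data carry no measurement of binding.

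Itgav pairs with Itgb1, Itgb3, Itgb5, Itgb6 or Itgb8 and binds vitronectin, fibronectin and latent TGF-beta. The bright probe set 104386_f_at read 1932.0 and 1694.7 with Men1, against 1717.5 and 1372.4, so the groups overlapped by a narrow margin. Its difference was 0.23 (SE 0.21, 95% interval from -0.30 to 0.77). Of the 14 it had the second smallest unadjusted limma p, 0.307. The dimmer 104385_i_at, whose suffix marks a reduced number of probes, read 71.6 and 64.6 with Men1, against 52.3 and 112.6. The third, 98366_at, read 82.6 and 90.1 against 71.0 and 140.8. In both dim probe sets vector array 2 was the highest of the 4 and vector array 1 the lowest, the reverse of Itga5. Their differences were -0.16 (SE 0.34) and -0.19 (SE 0.32), opposite in sign to the bright one. The bright probe set and 104385_i_at are tied to 1 source sequence in the platform annotation, though their signals were far apart. The _f suffix of the bright one marks probes shared by a family of sequences, so its signal may not be of Itgav alone.

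Itgb5, the partner of Itgav in a vitronectin receptor, had 2 probe sets. The brighter, 100601_at, read 662.7 and 677.9 with Men1, against 519.3 and 668.8, a difference of 0.18 (SE 0.20, 95% interval from -0.35 to 0.71). Vector array 1 stood below the other arrays, which lay close together. The dimmer 162218_f_at read 82.7 and 137.1 against 106.0 and 140.1, and differed by -0.17 (SE 0.29). In this probe set both arrays numbered 2 were above both numbered 1. As for Itgav, the sign of the group difference depended on the probe set.

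Itga3, a laminin-binding subunit, read 616.5 and 402.8 with Men1, against 581.7 and 475.8 in 104210_at. In 104211_at it read 448.3 and 441.1 against 509.5 and 446.0. Differences were -0.08 (SE 0.27) and -0.10 (SE 0.18), and in both probe sets the arrays numbered 2 were below those numbered 1. Itga6, which pairs with Itgb1 or Itgb4, read 83.3 and 84.0 with Men1, against 84.6 and 67.0, a difference of 0.13 (SE 0.19, 95% interval from -0.37 to 0.62). Only vector array 2 stood apart, below the other 3.

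Itga7, a laminin receptor subunit best known from skeletal muscle, had 3 probe sets. In 93061_at it read 196.1 and 172.9 with Men1, against 242.1 and 155.5, in the array order of Itga5, with a difference of -0.07 (SE 0.26). In 161497_f_at it read 143.5 and 128.5 against 143.1 and 208.8. That difference, -0.32 (SE 0.24), had the smallest unadjusted p of the 14 in limma, 0.239. Vector array 2 was the highest of the 4 here and the lowest in 93061_at. The remaining one, 160086_at, read 3.4 to 4.4 and was at control level on all 4 arrays, so it gives no level. Skeletal muscle markers summed to 349.5 and 342 with Men1, against 424 and 467.7 over 14 measured genes, of which 7 were at control level on all arrays and 3 were above control on all. At an unadjusted p under 0.05, 2 of the 14 (Myog and Tnni1) had lower signals with Men1, against 1.68% of all genes in either direction, and both had an adjusted p of 1 in limma. Myog read 23.7 and 28.1 with Men1, against 68.1 and 53.3. Its signals with Men1 were close to the highest controls of those arrays (25.9 and 27.4). The part of muscle transcripts in the Itga7 signals was not tested.

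Of the 5 genes with several probe sets, 3 (Itga3, Itga7 and Itgb1) had differences of 1 sign throughout, counting for Itga7 the probe set at control level. With the probe sets of each gene averaged before the fit, the gene differences ran from -0.14 for Itga7 to 0.38 for Itga5, with 0.19 for Itgb1, 0.13 for Itga6, 0.01 for Itgb5, -0.04 for Itgav and -0.09 for Itga3. Without the probe set at control level, the Itga7 difference was -0.19 (SE 0.22). The median of the gene differences was 0.01 in place of -0.05 either way. Probe sets above control had 95% intervals between 0.924 and 4.20 wide on the log2 scale, so a group difference of moderate size in most of these genes was not resolved with 2 arrays a group.

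**Figure D2:**
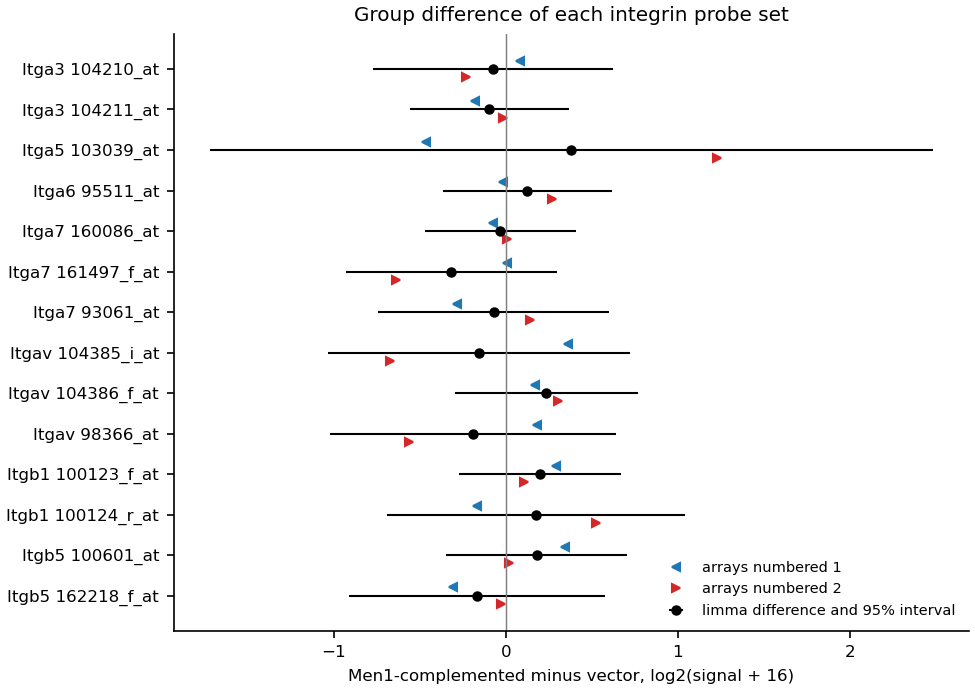
Men1-complemented minus vector on the log2(signal + 16) scale for the 14 integrin probe sets; black points and bars are limma differences with 95% intervals, and triangles are the differences between the arrays numbered 1 and between those numbered 2. Every interval spans 0, and for Itga5 the triangles lie at -0.47 and 1.23.

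Arrays were then set against each other by the number in the sample titles. The difference between the groups had opposite signs in number 1 and number 2 for 9 of the 14 probe sets (64.3%), against 56.8% of all probe sets. Signals of the arrays numbered 1 and 2 did not overlap for 9 of 14, against 44.7% of all probe sets. In 6 of these the arrays numbered 2 were lower (both of Itga3, Itga5, 93061_at of Itga7, the bright Itgav and the _r of Itgb1). In 3 they were higher (98366_at of Itgav and both of Itgb5). An additive limma fit of group and number called 0 of 14 for number at an adjusted p under 0.05, against 0% of all probe sets. At an unadjusted p under 0.05 it took 1 of 14, Itga5, against 9.06% of all probe sets. For Itga5 the arrays numbered 2 differed from those numbered 1 by -1.53 (SE 0.42, unadjusted p = 0.0144, adjusted p = 0.458). That value is the mean of -0.69 within the Men1-complemented group and -2.38 within the vector group, so it rests mostly on the latter.

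The spread of Itga5 was widest between the vector arrays. Among the 7217 probe sets above control on all arrays, its vector difference by size stood at percentile 99.9 and its Men1-complemented difference at percentile 95.9. The other integrin probe sets above control lay between percentiles 30.9 and 92.8 for the vector arrays. The highest of these were the dim Itgav probe sets (0.91 and 0.85, vector array 2 higher) and the _r probe set of Itgb1 (-0.88, vector array 2 lower). All 13 probe sets other than that of Itga5 ranged over less than 1 log2 unit. The ratio of the 3′ to the 5′ Gapdh control was 0.782 and 0.743 on vector arrays 1 and 2, and 0.85 and 0.804 on the others. For Actb the ratio was 1.15 and 1.08 on the vector arrays and 1.18 and 1.09 on the others, and for Tfrc it was 4.64 and 4.93, and 5.09 and 5, so that vector array 2 was lowest for Gapdh and Actb and vector array 1 for Tfrc. Vector array 2 also had the highest median signal, 62.4, against 50 on vector array 1 and 54.3 and 55.65 on the others. The part of these measures in the differences was not tested.

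**Figure D3:**
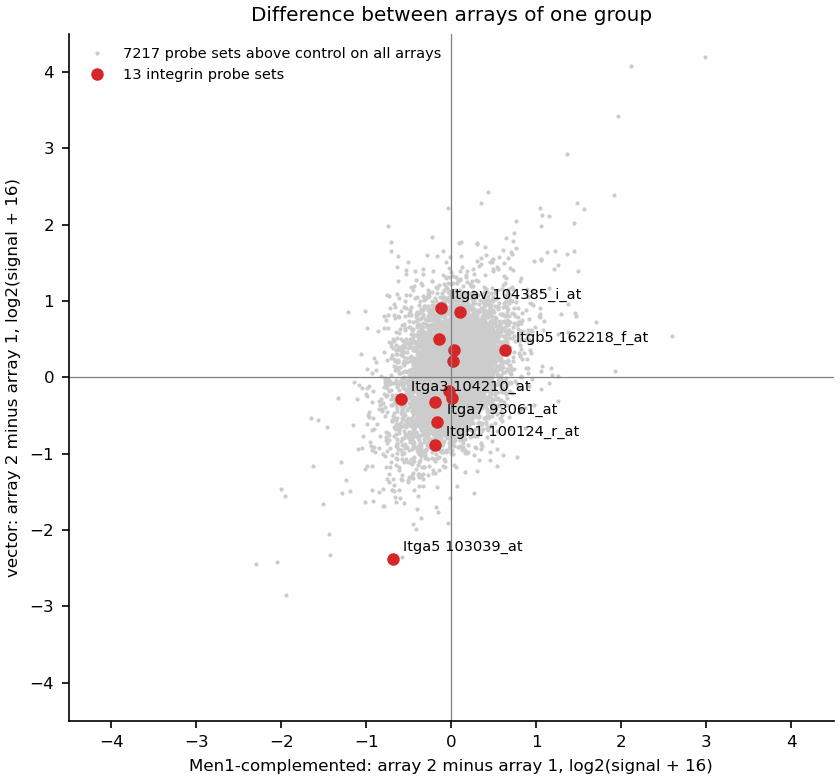
Array 2 minus array 1 within the Men1-complemented group (horizontal) and within the vector group (vertical), log2(signal + 16), for 7217 probe sets above control on all arrays (grey) and the 13 integrin probe sets among them (red). Itga5 lies at -0.69 and -2.38, apart from the other integrin probe sets, which stay within 1 log2 unit on both axes.

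The genes whose pattern over the 4 arrays was most like that of Itga5 were Tes, Pkp1 and Dpysl3. Likeness was the Euclidean distance between log2 values centred on their mean over the arrays, taken over 6511 probe sets above control with 1 symbol. Tes, a LIM-domain protein of focal adhesions, was nearest at 0.43, and its probe set 101551_s_at read 430.5 and 311.9 with Men1, against 651.7 and 160.9. A second Tes probe set was at control level on every array. Pkp1, the desmosomal protein plakophilin, read 266.0 and 172.4 against 270.2 and 40.0, at a distance of 0.49. Its _f probe set read 299.0 and 240.2 against 276.3 and 136.4. Dpysl3, a cytosolic protein of the CRMP family, read 473.6 and 353.6 against 548.2 and 155.3, at 0.51. Among the integrins the nearest was the _r probe set of Itgb1, at 1.14. With 4 arrays, close patterns among this many probe sets are a description only.

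The order of Itga5 (vector 1, Men1-complemented 1, Men1-complemented 2, vector 2, from high to low) was noted after its values were seen. It held for 3 of 14 integrin probe sets, Itga5 included, against 5.82% of all probe sets and 8.85% of those above control on all arrays. Among adaptors and kinases of focal adhesions, each gene taken by its brightest probe set, it held for 9 of 37, against 6.54% of all 8251 genes. Of the adaptors and kinases above control on all arrays it held for 9 of 29, against 8.95% of all genes above control. Chosen after their values were seen, examples are the talin-binding protein Vcl, vinculin (4210.2 and 3577.6 with Men1, 4600.3 and 2788.4 with vector), and the actin cross-linker Actn1, alpha-actinin (5589.8 and 4369.4 against 5733.1 and 2896.6). Fermt2, the kindlin that binds beta subunit tails, read 628.2 and 435.0 against 830.3 and 316.2. A second, dimmer Vcl probe set (735.3 and 654.6 against 1034.4 and 371.3) had the same order. So did another Actn1 probe set (4769.7 and 3492.1 against 5073 and 2678). The _r probe set of Actn1 (1586.7 and 1622.3 against 1820.5 and 1049.1) did not, as its Men1-complemented array 2 was above array 1. The order was not general in the list: Sorbs3, a vinculin-binding adaptor, read 96.4 and 220.3 against 53.7 and 288.6. Other genes around the integrins, also chosen after their values were seen, were highest on vector array 2. The matrix protein Postn, periostin, read 5.7 and 46.4 against 8.2 and 125.1, and the glypican Gpc3 read 85.9 and 83.6 against 51.4 and 296.9. Among ligands the order of Itga5 held for 3 of 32 genes, including Thbs2, thrombospondin 2 (272.7 and 162.3 against 319.6 and 104.4), and Ccn2, a matricellular protein (3353.2 and 2600.9 against 3383.9 and 1590.3). It held for 2 of 18 membrane partners, 2 of 18 other matrix receptors and 1 of 11 other integrins. Among those above control on all arrays, it held for 3 of 20 ligands and 2 of 14 membrane partners. The same filter left 2 of 13 other matrix receptors and 0 of 2 other integrins in this order. The median vector difference by size was 0.61 over the 37 focal adhesion genes, 0.35 over other matrix receptors, 0.27 over ligands, 0.27 over other integrins and 0.20 over membrane partners, against 0.31 over all genes.

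**Figure D4:**
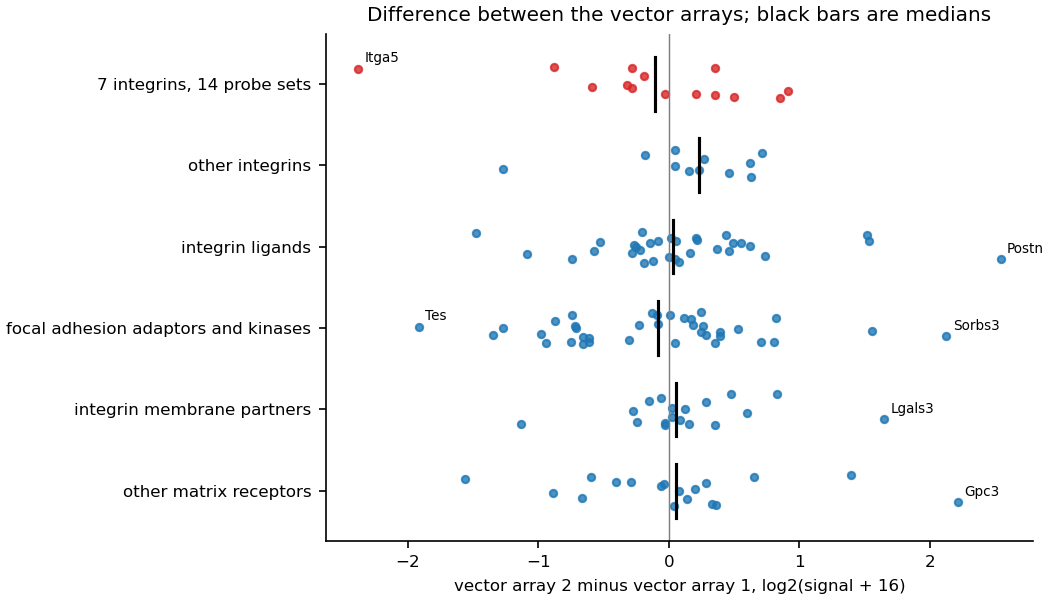
Vector array 2 minus vector array 1, log2(signal + 16), for the 14 integrin probe sets (red) and for genes of 5 related lists by their brightest probe set (blue); black bars are medians and the genes farthest from 0 are named. Itga5, at -2.38, and Tes, at -1.92, lie at the low end, and Postn, Sorbs3 and Gpc3 at the high end.

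Between the groups, the genes around these receptors gave no calls either. In limma, 0 genes of the 5 lists below passed at an adjusted p under 0.05 and 0 at an unadjusted p under 0.05, against 1.68% of all genes at the latter. Groups did not overlap for 22.1% of all genes, with 835 of 8251 higher and 990 lower with Men1. Among the focal adhesion adaptors and kinases, 22 of 37 were higher with Men1 and 15 lower (median 0.02), and 3 did not overlap, 1 of them higher. The smallest p values were those of Lpp, a zyxin-related LIM protein (2638.5 and 1430.9 against 1743.8 and 1137.8, difference 0.46, SE 0.38), and of Flna, filamin A, whose probe set was at control level on all arrays. Tln1, the talin that activates integrins, is named after its values were seen, as are Fn1, Sorbs3, Itgb3, Itgb7 and Itgax. The brightest Tln1 probe set read 2158.6 and 2024.4 against 1799.8 and 2368.7, while another read 1817.1 and 1629.4 against 1467.0 and 1508.0 without overlap.

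Integrin ligands were evenly divided, 16 of 32 higher and 16 lower (median -0.0035), and 6 did not overlap, 5 of them lower with Men1. Of these 6, only Nid1 and Nid2 were above control on all 4 arrays. Vcam1 and Lama4 were above it on 2 arrays, and Lamb3 and Lama2, the latter higher with Men1, on 0. Nid1, the basement membrane linker nidogen, read 68.8 and 56.7 against 91.1 and 78.1, a difference of -0.35 (SE 0.19). Vcam1, a cell-surface ligand of Itga4 with Itgb1, read 9.4 and 16.6 against 18.2 and 34.3 in its brightest probe set, a difference of -0.53 (SE 0.27). Its other probe sets had the opposite sign, 0.07 (SE 0.38) and 0.21 (SE 0.40), and none of the 3 was above control on all arrays. Fn1, fibronectin, the ligand of Itga5 with Itgb1, read 927.3 and 941.7 against 735.0 and 1237.3. Its vector arrays enclosed the Men1-complemented arrays as those of Itga5 did, but with vector array 2 on top (difference -0.03, SE 0.29).

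Of the other integrin subunits, 11 were measured, 6 higher and 5 lower (median 0.03), and 1 did not overlap. Only Itgb7 and Itgax were above control on all 4 arrays, and 6 were at control level on all 4, including the Itgb4 partner of Itga6 and the blood cell subunits Itgb2 and Itgam. Itga2, a collagen receptor subunit, read 28.6 and 27.6 against 13.4 and 24.5, close to the controls, and differed by 0.35 (SE 0.22). Itgal, a leukocyte subunit, read 11.8 and 18.7 against 23.4 and 18.7. Itgb3, the other vitronectin receptor partner of Itgav, read 17.0 and 11.7 against 32.1 and 4.0, in the array order of Itga5 but above control on 1 array alone.

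Membrane partners of integrins included the tetraspanins, of which Cd9 read 328.2 and 332.4 against 350.9 and 453.0 (difference -0.26, SE 0.20). Of 18 such genes 10 were higher and 8 lower (median 0.02), and 5 did not overlap, all lower with Men1. Over all 8251 genes, groups did not overlap for 22.1%, with 990 genes lower and 835 higher. Cd36, a scavenger receptor, was at control level. Of 18 other matrix receptors 7 were higher and 11 lower (median -0.05), and 1 did not overlap. Cd44, the hyaluronan receptor, read 436.2 and 410.4 against 418.1 and 258.6 (difference 0.35, SE 0.27). The syndecan Sdc2 read 264.7 and 378.7 against 303.8 and 826.7 (difference -0.64, SE 0.50), with vector array 2 far above the other 3.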

How the data were processed

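Per the submitters' processing notes, the authors made the deposited values, linear probe set intensity, with Affymetrix Expression Console and MAS5; versions and scaling target are not given in the sources used here. Arrays had been brought to 1 level (mean after trimming 2% at each end, 150.07 to 150.08), which cannot show a change in total RNA. The number of arrays limits the precision.

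The 66 array controls among 12488 probe sets were left out of the tests. Signals were taken as log2(signal + 16) without further normalization. All 12422 probe sets were fitted in R 4.3.3 with limma 3.58.1, by lmFit and eBayes (2 residual and 2.87 prior degrees of freedom, median SE 0.22), two-sided, with Benjamini-Hochberg adjustment over all of them at 0.05. The fit was also run on simulated data with known changes, to check the size and sign of its differences. Those data had the same spread for every probe set and independent arrays, so they do not measure the error rate here. Annotated symbols were updated by gene ID from a mouse table (GRCm38.p6) for 10817 of 10833 single-symbol probe sets.

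The 7 genes and all lists were chosen with earlier results of these data known. Named list genes were those at an unadjusted p under 0.05, at most 4 a list, or else the 2 with the smallest p. The 3 genes nearest in pattern were named for the integrin probe set of the largest range. Alternatives were quantile normalization, a pseudocount of 1, a filter on dim probe sets, a replicate block, averaged probe sets and leaving out each array.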

Additional observations from a re-analysis of the deposited data

How the results depend on the processing

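No integrin probe set passed at an adjusted p under 0.05 in any setting run, and 0 did over all probe sets; the smallest adjusted integrin p was 0.576, without vector replicate 1. Over all probe sets tested, the count at an unadjusted limma p under 0.05 was 233 of 12422, and 121 of 8412 with the filter on dim probe sets. It ran from 121 to 1031 without single arrays, with 1031 without vector replicate 1 and 559 without vector replicate 2. A group left with 1 array was taken to vary as the other group did. The integrin count at that p was 0, and 0 to 5 without single arrays. The 5, without vector replicate 1, were Itga5 and the _r Itgb1 (higher with Men1) and 161497_f_at of Itga7 and both dim Itgav probe sets (lower), against 8.3% of all probe sets. Non-overlapping integrin probe sets numbered 1 of 14 (22.1% of all probe sets). They numbered 4 with quantile normalization (25.3% of all), 5 without either Men1 array (50% and 52.4%) and 10 without either vector array (72.4% and 68%). The integrin median of -0.05 became 0.0069 with probe sets averaged, also (chosen after seeing the data) without those at control level on all arrays, and -0.0303 to 0.0658 without single arrays.

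The sign of a difference turned in 11 of 56 values without single arrays and in 0 of 55 in other settings. The replicate block and the filter on dim probe sets left each difference as it was, so they could not turn a sign. Only quantile normalization and the pseudocount of 1 could do so among these other settings. Ranges were -0.37 to 0.22 (104210_at of Itga3), -0.81 to 1.57 (Itga5), -0.0137 to 0.26 (Itga6), -0.37 to 0.22 (93061_at of Itga7), -0.61 to 0.30 and -0.62 to 0.23 (104385_i_at and 98366_at of Itgav), -0.27 to 0.62 (_r of Itgb1) and -0.48 to 0.15 (162218_f_at of Itgb5).

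Blocking on replicate number gave a count over all probe sets of 297 in place of 233, and no integrin call changed. Deviations of same-numbered arrays correlated at 0.26 over all probe sets and at 0.37 over those above control on all arrays. With 2 pairs and no label for a shared source, what same-numbered arrays share beyond a number cannot be told.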
